A study of Mus musculus with 3 samples.

Results

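The genes described here are 39 interferon-stimulated genes, taken by name from the array's own annotation, out of 34827 distinct gene names on the array. All 39 had at least 1 probe, and each gene was read on its brightest probe, the one with the highest mean signal over the 3 arrays. The sampled material was a mouse line, HoxA9-Meis1 AML cells (AML, acute myeloid leukaemia), of strain C57Bl/6 and taken from bone marrow. Hoxa9 and Meis1 are homeobox genes that together drive this leukaemia. They were left untreated, given the compound Pyrydopyrazine A2 at 3.4 µM, or given retinoic acid (RA) together with 1α-hydroxy vitamin D3 (D3V) at 10 µM each. All were sampled at 24 h, and the study compared each treated expression signature with that of untreated cells. A single one-colour Agilent array stands for each condition, so no difference has a replicate check, no test across samples was possible, and every value below describes single arrays.

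Which treated array is which is not settled. In the authors' value table the ranks of all spots under the heading RA+D3V were those of the scanner file named for A2 (Spearman 1), and the ranks under the heading A2 were those of the file named for RA+D3V (Spearman 1). Arrays are named here after their scanner files, so each direction belongs to the array so labelled and not necessarily to the compound. Cyp26a1, the retinoic acid hydroxylase that retinoic acid is known to induce, was above background on 1 of the 3 arrays, the A2-labelled one, at least 83.5-fold over the untreated array. Cyp24a1, the hydroxylase that vitamin D is known to induce, was at least 1296-fold higher there and was also not well above background on the other 2 arrays. The control in that table was none of the scanned arrays (Spearman 0.936 with the untreated one) and is used below as a second control, of unknown origin.

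Of the spots on the untreated, RA+D3V and A2 arrays 46.0%, 46.8% and 46.6% were well above background, and none was saturated. The members were well above background in 38, 38 and 37 of 39 cases on these arrays. Among 8 genes fixed as markers of the labelled cells, 7 were above background on every array, among them Ptprc, Hoxa9 and Mpo, whereas Meis1 was on none. The summed signal of these markers, as multiples of the array's 75th percentile, was 1098 (untreated), 739.4 (RA+D3V) and 472.6 (A2). Of the 7, 4 lay above untreated and 3 below on the A2-labelled array, and 6 above and 1 below on the RA+D3V-labelled array. Mpo differed by -2.22 (A2) and -1.57 (RA+D3V), Itgam by 2.38 and 2.31, and Cd34 by -1.29 and 0.67. In the same order Kit differed by 1.702 and 0.42, and Hoxa9 by 1.19 and 0.38. Csf1r differed by 0.696 and 0.59, and Ptprc by -0.17 and 0.19. Markers of other cell types were present and moved as well, and whether in other cells or in the labelled cells was not tested. The summed signal of macrophage markers, as multiples of the array's 75th percentile, was 57.9 on the untreated array, 144.1 on the RA+D3V-labelled array and 171 on the A2-labelled array, with 4, 5 and 5 of 5 markers above background. That order is set by Cd68, since the other 4 markers were lower on the A2-labelled than on the RA+D3V-labelled array (C1qa by -2.21, C1qb by -0.97, C1qc by -1.79, Mrc1 by -4.89, against 0.47 for Cd68). All of those measured were above untreated on both treated arrays, and Mrc1 was at least 3.23-fold (A2) and at least 95.7-fold (RA+D3V) higher. That of neutrophil markers was 750.3, 1206 and 908.5, with 6 of 6 above background on each array. On the A2-labelled array 3 of these lay above untreated and 3 below, with Ly6g at 1.901 and Cxcr2 at -2.54. On the RA+D3V-labelled array all 6 lay above untreated, with Ly6g at 0.38 and Cxcr2 at 1.496. For plasmacytoid dendritic cells, known as strong producers of interferon, the sums were 182, 258 and 203, with 5 of 6 markers above background and Ccr9 below it on all 3 arrays. Siglech was the brightest of these markers, and Bst2 is also one of the 39 members. On the RA+D3V-labelled array Siglech (0.65), Bst2 (0.68) and Runx2 (0.30) lay above untreated, and Tcf4 (-0.56) and Pacsin1 (-0.22) below. On the A2-labelled array Runx2 was at -1.07, and the others were within 2-fold. T and NK cell markers summed to 20.6, 14.0 and 20.0 (5, 4 and 4 of 6, Ncr1 below on all). The sum hides unlike genes, since Cd3d (-1.85 on A2, -1.55 on RA+D3V) and Cd2 (-1.80 and -1.89) were below untreated on both. Cd3g was above background on the untreated array only (at least 3.14-fold lower on A2). Cd3e differed by -0.24 and -0.23, and Nkg7, the brightest, by 0.22 and -0.56. B cell markers summed to 22.5, 14.9 and 22.2 (4 of 5, Pax5 below on all). Conventional dendritic cell, erythroid, and stromal and endothelial markers each summed to at most 4.28, but single markers among them differed. Clec9a and Col1a1 were above background on the A2-labelled array only, at least 8.30-fold and 5.01-fold over untreated. Flt3 differed by -2.28 (A2) and -1.79 (RA+D3V), Itgax by 0.78 and 0.16, Hbb-b1 by -1.05 and -1.10, and Pecam1 by 0.01 and 0.81. The part of other cell types in the results below was not tested, and in RNA of whole cultures fewer cells of a type and less RNA per cell cannot be told apart.

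Interferons are secreted proteins that cells release on sensing foreign or misplaced nucleic acid. Type I interferons signal through their receptor and Janus kinases to a complex that includes STAT2 and IRF9 and binds the interferon-stimulated response element. Interferon gamma acts mainly at a shorter site. The products of the induced genes sense viral RNA, block translation, degrade RNA, present peptides and feed back on the signal, and in myeloid leukaemia cells several of them are also known as retinoic acid responsive. Ddx58, which encodes the RNA sensor RIG-I, owes its older name, retinoic acid-inducible gene I, to that response.

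The response element can be seen in the promoters of members that behaved differently on these arrays. RefSeq windows of 250 bases before to 50 after the gene start (GRCm38.p6) were found for 30 of 39 members. There was no entry for Dhx58, Zbp1, Usp18, Oas2, Mx1, Mx2, Iigp1, Rtp4 and Parp14. The core of the response element was searched as 2 copies of GAAA with any 2 bases between them, on either strand and with overlapping matches included, and 15 of the 30 members held it, against 3.99% of all 27025 genes in the table. That shorter site was searched as TTCNNNGAA, which reads alike on both strands, and 10 of 30 held it against 9.55% of all genes. In the window of Bst2 a match of one motif overlaps a match of the other. The stretches below are printed 5′ to 3′ on the gene's strand, with matches in capitals (a pair of TTTC is the core read on the opposite strand), to set members with like elements and unlike values beside each other. They lie at chr4:156200860-156200911 (Isg15, minus strand), chr5:120907526-120907560 (Oas1a, minus), chr5:120777710-120777749 (Oas3, minus) and chr19:34640770-34640828 (Ifit1, plus). The others are at chr19:34583358-34583431 (Ifit3, plus), chr12:26456548-26456587 (Rsad2, minus), chr3:142620589-142620628 (Gbp2, plus) and chr3:142559984-142560029 (Gbp3, plus). For Irf1 the shorter site is in capitals, at chr11:53769909-53769947 (plus).
Isg15: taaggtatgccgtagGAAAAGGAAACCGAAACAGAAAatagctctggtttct
Oas1a: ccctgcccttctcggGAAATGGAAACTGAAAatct
Oas3: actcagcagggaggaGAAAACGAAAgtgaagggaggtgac
Ifit1: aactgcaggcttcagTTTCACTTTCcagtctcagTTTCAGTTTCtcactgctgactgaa
Ifit3: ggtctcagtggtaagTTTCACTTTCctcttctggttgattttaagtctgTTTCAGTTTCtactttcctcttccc
Rsad2: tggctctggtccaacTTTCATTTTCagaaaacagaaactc
Gbp2: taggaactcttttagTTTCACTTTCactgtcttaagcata
Gbp3: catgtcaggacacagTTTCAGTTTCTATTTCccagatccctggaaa
Irf1: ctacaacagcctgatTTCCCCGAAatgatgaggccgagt

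Most members lay above their untreated level on both treated arrays, and a minority of them by 2-fold or more. Signals are given as log2 of the processed signal minus the array's 75th percentile, and differences as log2 differences of these between arrays. On the A2-labelled array, 8 of 37 measured members (21.6%) exceeded the untreated array by 2-fold or more, where 7.97% of all 17292 measured genes did, and 1 (2.7%) was at least 2-fold lower, against 6.4% of all genes. The members' median difference was 0.36, with quartiles at 0.16 and 0.93, against -0.03 for all measured genes, and 30 of 37 members (81.1%) lay above their untreated level, against 48.0% of all genes. On the RA+D3V-labelled array, 5 of 38 members (13.2%) were at least 2-fold higher, against 7.82% of all genes, and 1 (2.63%) was at least 2-fold lower, against 5.04%. The median was 0.22, with quartiles at -0.27 and 0.80, against -0.02 for all genes, and 24 of 38 members (63.2%) lay above untreated, against 48.3% of all genes. Both of these comparisons use the same untreated array, so their values are given side by side for each gene and not as a measure of likeness.

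**Figure D1:**
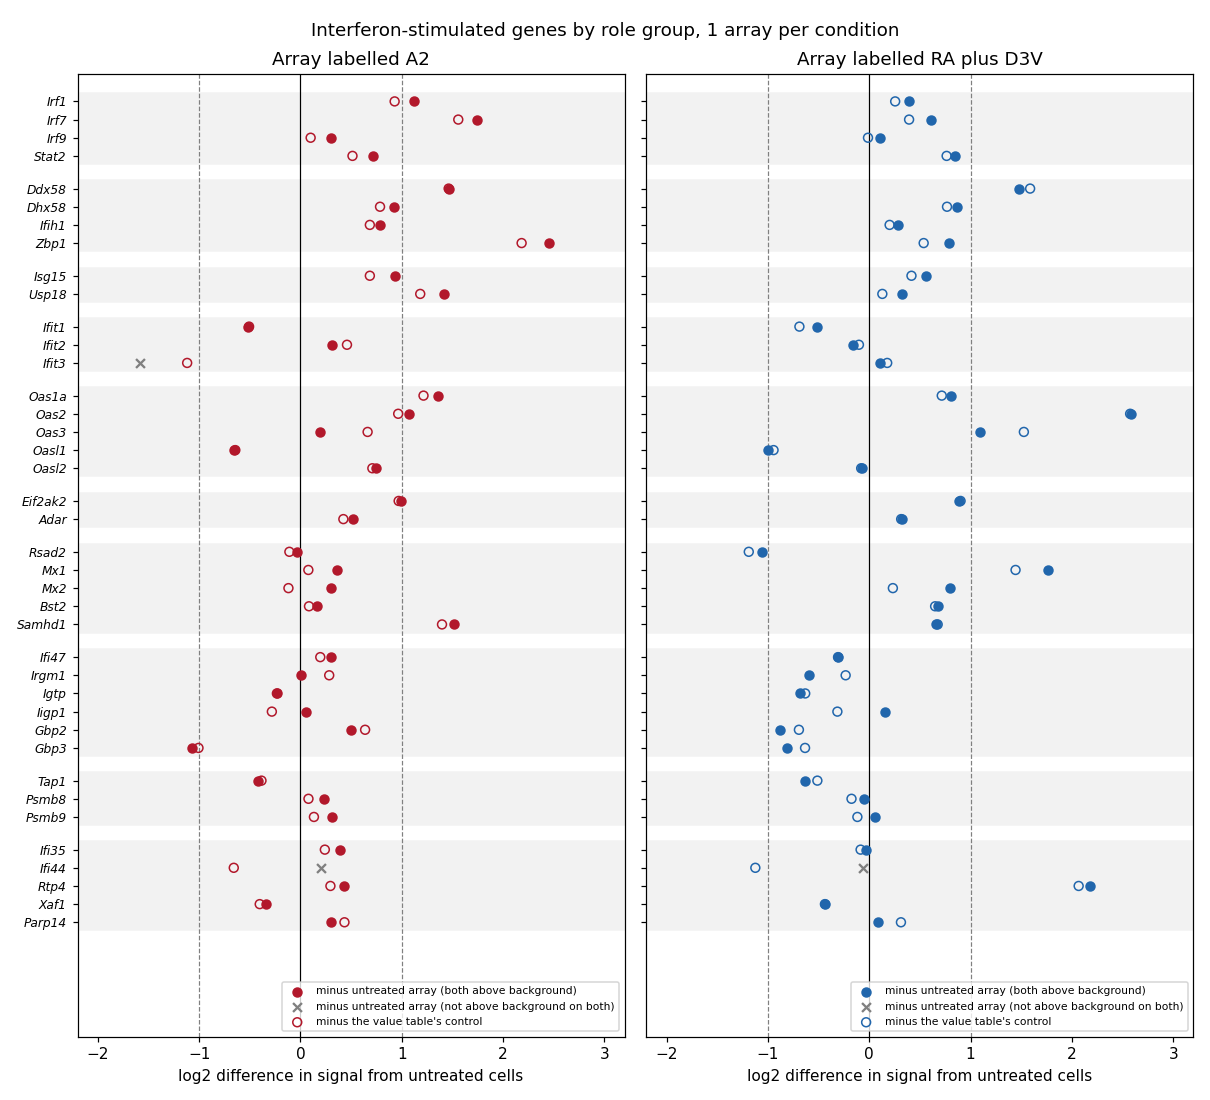
Log2 difference in signal from untreated cells (horizontal axis) for all 39 members (vertical axis, shaded by role group), on the A2-labelled array (left) and the RA+D3V-labelled array (right). Filled points are differences from the untreated array, crosses mark genes not above background on both arrays, open circles are differences from the value table's control, and dashed lines mark 2-fold. Zbp1 leads on the left (2.46) and Oas2 on the right (2.58), while the IFIT genes lie near or below 0 in both panels.

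**Figure D2:**
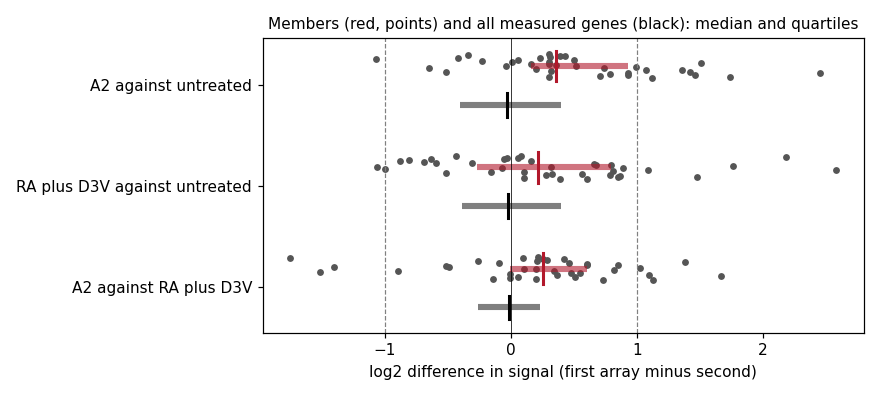
Log2 difference in signal (horizontal axis) for the 3 comparisons. Points are measured members, red bars and ticks their quartiles and medians, black bars and ticks the quartiles and medians of all measured genes, and dashed lines mark 2-fold. The members' medians of 0.36, 0.22 and 0.26 lie to the right of those of all genes (-0.03, -0.02 and -0.02), with single members on either side of the lines.

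All 4 transcription factors lay above untreated on both treated arrays, 2 of them by at least 2-fold on the A2-labelled array. Irf7, the master factor of late type I interferon transcription, had a signal of -2.18 on the untreated array, -1.57 on the RA+D3V-labelled array and -0.44 on the A2-labelled array (probe on chromosome 7, 148450664 to 148451014, mm9). Its signal was thus highest on the A2-labelled array, 3.34-fold above untreated, and 1.52-fold above untreated on the other treated array. The probe is dim, and with another background correction (normexp) these were 2.21-fold and 1.32-fold. Irf1, a factor that interferon gamma and retinoic acid are known to induce, had signals of 3.37, 3.76 and 4.49 in the same order (chromosome 11, 53590746 to 53590805). Its difference of 1.12 on the A2-labelled array was 0.93 against the value table's control, under 2-fold. Stat2, a subunit of the complex that binds the response element, differed by 0.71 on the A2-labelled array and by 0.85 on the RA+D3V-labelled array. Irf9, which gives that complex its DNA binding, differed by 0.30 and 0.10.

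All 4 sensors of nucleic acid lay above their untreated level on both treated arrays. Zbp1, a sensor of Z-form nucleic acid that can trigger necroptosis, had signals of 0.01 on the untreated array, 0.79 on the RA+D3V-labelled array and 2.46 on the A2-labelled array (chromosome 2, 173039307 to 173039366). The array labelled A2 was 5.49-fold above untreated, the widest difference of any measured member there. Its second probe differed by 1.81 on the A2-labelled array and by -0.17 on the RA+D3V-labelled array, so the probes were of opposite sign on the latter. Ddx58 had signals of 1.25, 2.73 and 2.72 in that order (chromosome 4, 40151893 to 40151952). It was almost equally high on both treated arrays, 2.78-fold (RA+D3V) and 2.76-fold (A2) above untreated. Against the value table's control it kept differences of 1.59 and 1.46. Dhx58, the regulator LGP2, differed by 0.87 and 0.93, and Ifih1, the sensor MDA5, by 0.28 and 0.79 on the RA+D3V and A2 arrays.

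Isg15, a ubiquitin-like protein conjugated to other proteins, had signals of 2.24 on the untreated array, 2.80 on the RA+D3V-labelled array and 3.17 on the A2-labelled array. It remained within 2-fold of untreated on both (1.48-fold and 1.91-fold), and its second probe gave differences of 0.65 and 1.05. Usp18, the protease that removes ISG15 and dampens receptor signalling, had signals of 0.17, 0.49 and 1.59 (chromosome 6, 121220874 to 121220933). Only on the A2-labelled array did it pass 2-fold (2.68-fold), and its difference there was 1.18 against the value table's control.

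The IFIT proteins, which bind foreign RNA and are usually among the most strongly induced products of interferon, were dim and not raised. Ifit1 had signals of -2.56 on the untreated array, -3.07 on the RA+D3V-labelled array and -3.08 on the A2-labelled array, which gives differences of -0.51 and -0.52. With normexp these were 0.0005 and -0.03, so its direction depends on how background is removed. Ifit2 differed by -0.16 and 0.32, the former 0.08 with normexp. Ifit3 had signals of -2.76 and -2.65 on the untreated and RA+D3V arrays and was not well above background on the A2-labelled array, at least 2.59-fold below untreated (chromosome 19, 34663105 to 34663164). That bound is taken at -4.13, the dimmest signal on that array still well above background, which exceeds the probe's own -4.34. The windows of Ifit1 and Ifit3 printed above each hold 2 matches of the core, and that of Isg15 holds 3. Very similar Ifit copies exist in the mouse genome, and cross-hybridization of the probes was not tested.

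The OAS family, enzymes that sense double-stranded RNA and activate RNA decay, split between neighbouring genes. Oas2 had signals of -0.14 on the untreated array, 2.45 on the RA+D3V-labelled array and 0.93 on the A2-labelled array (chromosome 5, 121180343 to 121180402). It was highest on the RA+D3V-labelled array, 6.0-fold above untreated, the widest difference of a measured member on that array. Its 2.1-fold difference on the A2-labelled array was 1.95-fold against the value table's control and 1.88-fold with normexp, both under 2-fold. Oas3, whose probe lies nearby (chromosome 5, 121203598 to 121203657), had signals of -1.08, 0.01 and -0.88, which was 2.13-fold above untreated on the RA+D3V-labelled array. With normexp this was 1.67-fold, and against the value table's control the difference was 1.53. Oas1a, further along the same chromosome (121346735 to 121346794), had signals of 5.48, 6.29 and 6.84, the reverse order of treated arrays, and was 2.57-fold above untreated on the A2-labelled array. Its second probe gave 1.27 there and 0.65 on the RA+D3V-labelled array, but Oas1 copies of close sequence were not told apart. The OAS-like genes, which lie apart from these on the same chromosome, differed again. Oasl1, known to restrain Irf7 translation, was below untreated on both treated arrays (1.996-fold on RA+D3V, just inside 2-fold, and 1.57-fold on A2), and Oasl2 differed by -0.07 and 0.74.

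Eif2ak2, the kinase PKR that halts translation on double-stranded RNA, had signals of 1.07 on the untreated array, 1.96 on the RA+D3V-labelled array and 2.06 on the A2-labelled array. It was just under 2-fold on the A2-labelled array (1.994-fold). Adar, which edits adenosines in double-stranded RNA, differed by 0.32 (RA+D3V) and 0.52 (A2) by its brightest probe, but its other probe gave -0.52 and -0.22, so its direction depends on the probe.

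The direct antiviral effectors went 3 ways. Samhd1, a phosphohydrolase that depletes deoxynucleotides and is abundant in myeloid cells, had signals of 4.39 on the untreated array, 5.05 on the RA+D3V-labelled array and 5.90 on the A2-labelled array (chromosome 2, 156923265 to 156923324). It was 2.85-fold above untreated on the A2-labelled array, and another probe gave a difference of 1.08 there and 0.14 on the RA+D3V-labelled array. Mx1, a gene of the dynamin-like GTPases, had signals of -1.45, 0.32 and -1.09 (chromosome 16, 97668644 to 97668703). It stood apart on the RA+D3V-labelled array, 3.4-fold above untreated, while the A2-labelled array differed from untreated by 0.36. Its probe is dim on the untreated array, and with normexp the RA+D3V value was 2.54-fold. Against the value table's control its differences were 1.44 (RA+D3V) and 0.08 (A2). The neighbour Mx2 differed by 0.80 on the RA+D3V-labelled array, or by 0.39 with normexp and 0.23 against the value table's control. On the A2-labelled array Mx2 differed by 0.31, or by -0.12 against that control. Rsad2, which encodes viperin, had signals of -1.24, -2.30 and -1.27 (chromosome 12, 27127859 to 27127918). It was 2.09-fold lower on the RA+D3V-labelled array than on the untreated array, but 1.3-fold lower with normexp, so the call rests on how background is removed from a dim probe. Bst2, or tetherin, which holds budding virus at the membrane, differed by 0.68 and 0.16.

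**Figure D3:**
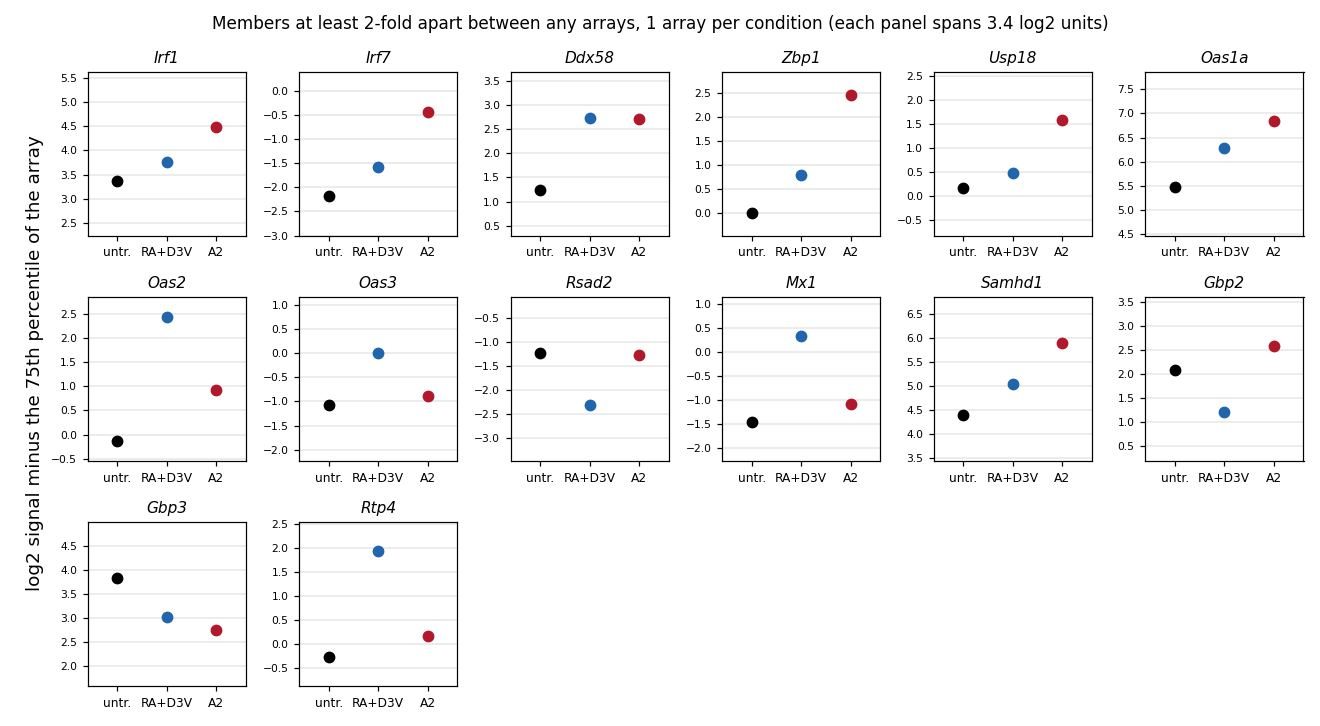
Log2 signal minus the array's 75th percentile (vertical axis) on the untreated (black), RA+D3V (blue) and A2 (red) arrays for the 14 members that were above background on both of some pair of arrays and at least 2-fold apart between them, 1 array per point. Ifit3, whose 2-fold difference is a bound, is not drawn. Every panel spans the same number of log2 units, and levels of different genes are not comparable because they come from different probes. Irf7, Zbp1, Usp18 and Samhd1 are highest on the A2-labelled array, and Oas2, Mx1 and Rtp4 on the RA+D3V-labelled array.

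The GTPases, which attack the vacuoles of intracellular pathogens and are known mainly as interferon gamma targets, were not raised as a group. Of 6 members, 1 lay above untreated and 5 below on the RA+D3V-labelled array (median -0.64), where 48.3% of all genes lay above. On the A2-labelled array 4 lay above and 2 below (median 0.03), where 48.0% of all genes lay above. Gbp3, a guanylate-binding protein, had signals of 3.82 on the untreated array, 3.01 on the RA+D3V-labelled array and 2.75 on the A2-labelled array (chromosome 3, 142236032 to 142236091). It was lower on both treated arrays, by 2.1-fold on the A2-labelled array. Gbp2 had a signal of 2.08 on the untreated array (chromosome 3, 142300719 to 142300778). It was 1.84-fold below that on the RA+D3V-labelled array and 1.42-fold above it on the A2-labelled array. The printed windows of Gbp2 and Gbp3 both hold the core of the response element. Igtp was read by 9 spots on each array, with signals of 3.15 ± 0.03 (SD of spots, untreated), 2.46 ± 0.05 (RA+D3V) and 2.92 ± 0.05 (A2). The spots of different arrays did not overlap, a spread that covers the hybridization of 1 sample and not cultures. Irgm1, a regulator of these GTPases, differed by -0.59 and 0.01 on the RA+D3V and A2 arrays, Ifi47 by -0.31 and 0.30, and Iigp1, which is dim here, by 0.16 and 0.06, or by -0.32 and -0.28 against the value table's control.

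The antigen processing genes differed little. Tap1, a subunit of the peptide transporter, was read by 10 spots, with signals of 3.09 ± 0.06 (SD of spots, untreated), 2.46 ± 0.07 (RA+D3V) and 2.67 ± 0.06 (A2). It was lower on both treated arrays, by differences of -0.63 and -0.42. Psmb8 and Psmb9, catalytic subunits of the immunoproteasome, differed by -0.06 and 0.06 on the RA+D3V-labelled array and by 0.23 and 0.31 on the A2-labelled array.

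Of the remaining 5 members, Rtp4, a chaperone-like protein of the receptor transporter family, had signals of -0.25 on the untreated array, 1.93 on the RA+D3V-labelled array and 0.18 on the A2-labelled array (chromosome 16, 23613668 to 23613727). It was 4.54-fold above untreated on the RA+D3V-labelled array and kept a difference of 2.07 against the value table's control. Xaf1, an antagonist of the apoptosis inhibitor XIAP, was below untreated on both arrays (-0.43 and -0.34), as was its second probe (-0.76 and -0.95). Parp14, an ADP-ribosyltransferase, differed by 0.08 and 0.30, and Ifi35 by -0.03 and 0.39. Ifi44 did not clear background on any of the 3 arrays and has no fold.

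Set against each other, the treated arrays differed in which members were high. This comparison does not use an untreated array. On the A2-labelled array, 5 of 37 measured members exceeded by 2-fold or more their level on the RA+D3V-labelled array, against 3.8% of all 17643 genes measured on both, and 3 were at least 2-fold lower, against 4.03%. Higher on the A2-labelled array were Zbp1 (1.67), Gbp2 (1.38), Irf7 (1.13) and Rsad2 (1.03), with Usp18 at 2.14-fold. Lower there were Rtp4 (-1.75), Oas2 (-1.51) and Mx1 (-1.41). The members' median was 0.26, with 26 of 37 (70.3%) above 0, against a median of -0.02 and 48.2% above 0 over all genes. With normexp Irf7, Usp18 and Rsad2 fell under 2-fold (differences of 0.75, 0.94 and 0.42), and the other 5 did not. Ddx58 and Ifit1, 1.006-fold and 1.002-fold apart, were the members closest to equal. With the value table's own labels every one of these directions is turned.

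**Figure D4:**
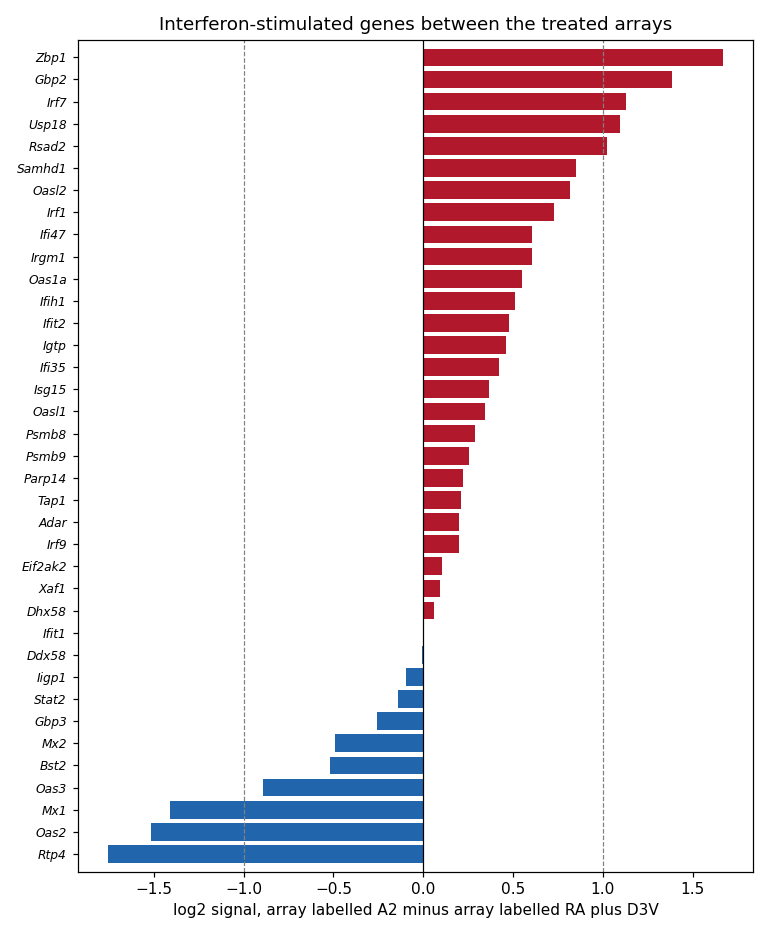
Log2 signal on the A2-labelled array minus that on the RA+D3V-labelled array (horizontal axis) for the 37 members above background on both, ordered by value, with dashed lines at 2-fold. Red bars are higher on the A2-labelled array and blue bars on the RA+D3V-labelled array, from Zbp1 (1.67) at the top to Rtp4 (-1.75) at the bottom.

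Members with and without a promoter match overlapped in their values. The 15 members whose window holds the paired GAAA core had differences from -1.07 to 1.47 on the A2-labelled array (median 0.35, 14 measured), and the 15 without it from -0.65 to 1.74 (median 0.31, 14 measured). On the RA+D3V-labelled array the medians were 0.28 (15 measured) and -0.04 (14 measured), with the lowest and highest at -1.06 and 1.48 in the first and the highest at 0.66 in the second. The 10 members with TTCNNNGAA had medians of 0.46 and 0.36 on the A2 and RA+D3V arrays, against 0.30 and -0.07 in the other 20. These are descriptions of short windows, and Zbp1, Oas2, Mx1 and Rtp4, which differed most, have no window in the table.

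The rest of the pathway was read from 77 other genes in 7 lists. Of 67 measured genes on the A2-labelled array, 10 were higher by 2-fold or more and 3 lower (median 0.26, beside 7.97% and 6.4% of all genes), and on the RA+D3V-labelled array 7 of 68 were higher and 2 lower (median 0.05, beside 7.82% and 5.04% of all genes). Among the interferons themselves, Ifnb1 and Ifna4 were not well above background on any array. Ifna1 and Ifnl3 were above it on all 3, at differences of 0.01 and 0.36 on the A2-labelled array and 0.11 and 0.53 on the RA+D3V-labelled array. Ifna2, close to background, was above it on the treated arrays only (at least 1.15-fold higher on A2 and 1.58-fold on RA+D3V), and Ifng on the untreated array only (at least 1.61-fold lower on A2 and at least 1.71-fold lower on RA+D3V). Among receptors and Janus kinases, the interferon gamma receptor chain Ifngr1 was higher on the A2-labelled array (1.85, against 0.29 on RA+D3V), while the type I receptor chains Ifnar1 and Ifnar2 lay within 2-fold on both. Ifnlr1, the receptor chain for interferon lambda, was below background on the A2-labelled array, at least 2.83-fold lower than on the untreated array, and differed by -0.10 on the other. In the list of sensors, adaptors and kinases that induce interferon, 12 genes were measured. On the A2-labelled array 8 lay above untreated and 4 below (median 0.25), where 48.0% of all genes lay above. On the RA+D3V-labelled array 4 lay above and 8 below (median -0.15), where 48.3% of all genes lay above. The kinase Ikbke (2.09), the endosomal chaperone Unc93b1 (1.88) and the receptor Tlr7 (1.05) were higher on the A2-labelled array, with 0.33, 0.90 and 0.20 on the RA+D3V-labelled array. Of the others, these were within 2-fold on the A2-labelled array, the receptor Tlr9 at 0.16, the kinase Tbk1 at 0.26, the adaptor Myd88 at -0.52 and the ubiquitin ligase Traf3 at -0.62. Irf8, a factor of monocytes and dendritic cells, was higher on the A2-labelled array only (1.19 against -0.03). The inhibitor Socs3 was lower there (-1.02 against -0.03). Between the treated arrays 5 of 69 measured pathway genes were higher and 4 lower on A2, beside 3.8% and 4.03% of all genes. Among them were Irf5, which differed from untreated by 0.28 on A2 and -0.82 on RA+D3V, and the inhibitor Socs1 at -1.11.

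Of 29 other interferon-induced genes, 28 were measured. Among these, 5 were at least 2-fold higher and 1 lower on the A2-labelled array, beside 7.97% and 6.4% of all genes. On the RA+D3V-labelled array 7 were higher and 1 lower, beside 7.82% and 5.04% of all genes. The restriction factor Ifitm3 (1.65 on A2, 1.97 on RA+D3V), the nuclear body protein Pml (1.92 and 1.25), the lysosomal thiol reductase Ifi30 (1.45 and 1.37) and the DNA sensor Ifi204 (1.32 and 1.08) were higher on each treated array. Herc6, an ISG15 ligase, was higher on the A2-labelled array (1.13 against 0.54). Higher on the RA+D3V-labelled array were Ifitm1 (3.61, against -0.65 on A2), Ifitm2 (1.42 against -0.46) and Ifi27l2a (1.11 against 0.81). The chemokine Cxcl10, a classical interferon gamma target, was lower on both (-3.75 on A2 and -2.63 on RA+D3V). Cxcl9, a related chemokine, was above background on the untreated array only (at least 2.27-fold lower on A2 and 2.41-fold on RA+D3V). The DNA sensor Aim2 differed by 0.94 on A2 and -0.48 on RA+D3V, 1.42 apart. The value of Trim25, an activator of RIG-I (-1.34 and -1.21), comes from a probe with a run of 31 alternating G and T bases. No brightest probe of a member has such a run longer than 5 bases. MHC class I presentation genes were all within 2-fold on both arrays, 8 of 8 measured, with medians of -0.09 and -0.30.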

How the data were processed

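RNA of 3 cultures was hybridized to 1 slide of one-colour arrays, 50 ng of total RNA each per the labels. The deposited scanner files hold intensity from Agilent Feature Extraction 11.5.1.1 per the submitters' processing notes. Per the file headers this processed signal is background subtracted and spatially detrended within each array, with no scaling between arrays and probe positions in mm9. The authors' deposited value table is also an intensity, of unstated processing; once sorted, 99.9% of values matched across its 3 columns to within 0.01%, as quantile normalization leaves them.

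Control spots and spots marked uneven or as outliers were left out (55657 probes remained). The log2 processed signal minus the log2 75th percentile was averaged over spots, and the brightest probe per gene was used. Genes count as measured where both arrays of a comparison had the probe well above background, and are counted at 2-fold. No test was run. Probes and promoters were joined to names by symbol. Precision was described from replicate spots (median SD of log2 signal 0.065, 0.065 and 0.0578 for untreated, RA+D3V and A2) and from the table's control, which differed from the untreated array by a SD of 0.17 over 38 members, none by 2-fold, and of 0.48 over all 18261 genes, 2.48% by 2-fold. The steps were tested on simulated data. All 39 members are named, and pathway genes that reached 2-fold from untreated; pathway genes under 2-fold, or 2-fold apart between the treated arrays only, were added after their values were seen. Alternatives (background, scaling, probe choice, dim filter, threshold, value table) are given in the closing section. The members and lists were chosen with earlier results of these data known. Tools were Python 3.11.15, pandas 2.3.3, R 4.3.3 and limma 3.58.1 (normexp, offset 50).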

Additional observations from a re-analysis of the deposited data

How the results depend on the processing

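Of the 10 alternatives, scaling to the median of detected probes, quantile normalization and leaving out probes with a G and T run moved no count by more than 1.5 times and no median by more than the controls' difference of 0.06 over the members. With normexp, 0 members instead of 1 were at least 2-fold lower for RA+D3V, beside 3.28% of all genes. Higher on A2 than on RA+D3V were 2 members instead of 5, beside 2.83% of all genes. Without a filter on dim probes, 2 were lower on A2 (beside 7.57% of all genes) and the RA+D3V median was 0.16. That median was 0.13 with the mean of detected probes and 0.28 with genes above background on all 3 arrays. At 1.5-fold, 14 members were higher and 2 lower on A2, 14 and 7 on RA+D3V, and 10 were higher on A2 than on RA+D3V. The share of all genes at 1.5-fold was not computed, so these counts cannot be set against it. With the value table by rank and its own control the A2 median was 0.42. With the table's own labels, 5 members were higher on A2 (median 0.20), beside 6.9% of all genes. On RA+D3V 2 were lower (median 0.36), beside 6.86%. Between the treated arrays 3 were higher and 5 lower (median -0.25), beside 3.48% and 3.65%. Under those labels the A2 minus RA+D3V differences turned for Irf7 (-1.17), Zbp1 (-1.65), Usp18 (-1.05), Rsad2 (-1.08), Gbp2 (-1.33), Oas2 (1.61), Mx1 (1.37) and Rtp4 (1.77). The causes of the other changes were not tested. No paired analysis was possible because each condition has 1 array. Signal close to background limits Irf7, Rsad2, Ifit1 to Ifit3, Oas3, Mx1, Mx2, Iigp1 and Ifi44.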
